A study of Mus musculus with 384 samples.

Results

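The transcripts examined here were 10 stress- and activity-inducible genes, 8 immediate early genes (Fos, Fosb, Jun, Junb, Jund, Egr1, Nr4a1 and Atf3) and the inducible heat shock protein 70 pair Hspa1a and Hspa1b. They were taken by name from the 32813 genes quantified, and all 10 were in the tables. The cells came from dissociated retinas of postnatal day 17 mice of the Kcng4-cre;stop-YFP cross, in which a Cre inserted at Kcng4 (the Kcng4tm1.1(cre)Jrs allele) switches on the Thy1-stop-YFP Line#1 reporter. The labels give this cross for every cell and no treatment, and no undissociated retina was measured, so no baseline level of these genes was available for these cells. Single cells were sorted by fluorescence into 96-well plates with lysis buffer and made into Smart-seq2 libraries, which read full-length transcripts without molecular identifiers. The labels name 4 retinas, 1Ra, 2Ra, 1la and 2la, from mouse 1 and mouse 2, and do not spell out what Ra and la stand for. Each retina filled its own wells, so a difference between retinas cannot be told apart from one between plates, and n is 2 mice throughout.

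Of 383 cells with values, 321 had at least 3000 genes at an expected count of 1 or more and were kept, 80 from 1Ra, 83 from 2Ra, 70 from 1la and 88 from 2la. They were grouped by which of 3 genes alone reached 20 TPM (the RSEM estimate of a gene's share of transcripts, which takes account of their length). The groups are named by this rule and not by cell type. It gave 151 Sox6-only, 60 Vsx1-only and 59 Ddit4l-only cells, beside 18 cells with more than 1 of the 3 and 33 with none. Total counts per kept cell ran between 203657 and 1945580, and the group medians lay close together, at 1067450 in Sox6-only, 1072600 in Vsx1-only and 1091480 in Ddit4l-only cells. The retina medians were 759554 in 1Ra and 1052930 in 2Ra, against 1258580 in 1la and 1193940 in 2la. The median mitochondrial share was 4.26% and 4.88% in 1Ra and 2Ra, against 2.06% and 2.14% in 1la and 2la. All 12 bipolar cell markers checked reached 1 CPM (counts scaled by library size) in every retina. Rod markers were also present, at a summed 1817 and 4062 CPM in 1Ra and 2Ra, against 4411 and 1778 CPM in 1la and 2la. In the same retina sums cone markers gave 1879 to 2765 CPM, Müller glia markers 159 to 603, amacrine markers 36.9 to 225, microglial markers 2.85 to 16.5 and astrocyte markers at most 0.023 CPM. Per kept cell, the 6 cone markers summed to a median of 1851 TPM and the 8 rod markers to 187 TPM. Of the 6 cone markers, 2 reached 1 TPM in most kept cells, so their sums need not measure cone RNA.

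Immediate early genes are transcribed within minutes of a signal such as calcium entry, growth factor or injury, without new protein synthesis. Fos and Jun proteins pair to form the transcription factor AP-1, Egr1 is a zinc finger transcription factor, Nr4a1 an orphan nuclear receptor, and Atf3 a stress-induced factor of the same leucine zipper class. The heat shock proteins Hspa1a and Hspa1b fold damaged proteins and are switched on by heat shock factor 1. Both gene classes are widely used as signs of the response of neurons and other cells to enzymatic and mechanical dissociation.

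Sequence is printed for the 250 bases upstream of the start of 5 members. Junb and Nr4a1 were chosen with Fos because each was detected in a larger share of the cells with Fos than without it. Hspa1a and Hspa1b were chosen because they are nearly identical in this stretch. The sequences are RefSeq windows on GRCm38.p6, written 5′ to 3′ on the strand of the gene. Capitals mark TGACG, the core of the cAMP response element, on either strand, the TATA box TATAAA, and GAANNTTC, a pair of inverted heat shock element units. The windows lie at chr12:85473640-85473889 on the plus strand for Fos, chr8:84978749-84978998 on the minus strand for Junb and chr15:101266596-101266845 on the plus strand for Nr4a1. Those of the heat shock pair lie on the minus strand at chr17:34972157-34972406 for Hspa1a and chr17:34959239-34959488 for Hspa1b.
Fos: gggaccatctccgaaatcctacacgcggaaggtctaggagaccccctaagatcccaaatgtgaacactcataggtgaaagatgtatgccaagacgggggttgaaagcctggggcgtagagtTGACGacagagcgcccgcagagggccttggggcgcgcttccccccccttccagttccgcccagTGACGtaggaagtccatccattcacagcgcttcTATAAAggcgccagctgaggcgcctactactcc
Junb: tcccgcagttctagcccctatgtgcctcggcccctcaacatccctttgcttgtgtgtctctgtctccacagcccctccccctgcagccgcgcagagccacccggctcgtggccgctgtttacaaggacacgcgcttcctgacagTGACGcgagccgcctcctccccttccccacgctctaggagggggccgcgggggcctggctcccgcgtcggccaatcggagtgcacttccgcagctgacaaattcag
Nr4a1: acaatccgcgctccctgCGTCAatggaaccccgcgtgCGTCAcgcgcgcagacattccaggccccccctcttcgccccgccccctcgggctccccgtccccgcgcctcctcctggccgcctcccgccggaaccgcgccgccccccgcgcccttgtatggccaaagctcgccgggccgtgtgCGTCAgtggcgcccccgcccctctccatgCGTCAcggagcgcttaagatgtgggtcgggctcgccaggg
Hspa1a: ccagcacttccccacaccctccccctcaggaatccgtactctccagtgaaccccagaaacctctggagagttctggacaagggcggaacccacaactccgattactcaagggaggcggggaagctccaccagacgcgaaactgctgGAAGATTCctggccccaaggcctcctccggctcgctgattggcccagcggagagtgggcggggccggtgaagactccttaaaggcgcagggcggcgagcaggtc
Hspa1b: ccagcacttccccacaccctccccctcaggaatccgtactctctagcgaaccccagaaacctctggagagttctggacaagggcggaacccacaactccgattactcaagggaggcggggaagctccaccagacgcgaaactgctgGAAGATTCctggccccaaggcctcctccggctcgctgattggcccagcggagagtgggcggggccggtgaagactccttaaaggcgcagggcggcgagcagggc
Fos held 2 copies of TGACG, Junb 1 and Nr4a1 4, the last all on the opposite strand, so that they read CGTCA as printed. Of all 32851 RefSeq windows of this length, 17.8% held at least 1 copy of TGACG on either strand, 12.4% held TATAAA and 6.69% held GAANNTTC. The full element TGACGTCA, which contains the core, was in 1.55% of windows and in none of the 9 members with a window. The AP-1 site TGANTCA (6.75% of windows), the heat shock pair in the other orientation, TTCNNGAA (7.17%), and the CArG box of serum response factor (1.47%) were likewise in none of the 9. Among the windows not printed, Fosb and Atf3 each held 1 copy of TGACG, Jun held 1 copy of GAANNTTC, and Jund held none of the motifs. Egr1 had no window. The starts used for the windows do not always match the gene coordinates given below. The windows of Nr4a1 and Atf3 lie inside those gene spans, and that of Jund ends at chr8:70697738, ahead of its gene start at 70698949. The windows of Hspa1a and Hspa1b were identical at 98.8% of positions. They differed at 3, C44T, T47C and T249G, with the base of Hspa1a first and positions counted from 1 at the 5′ end.

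Most kept cells had little or no signal from any single member. Counting an expected count of 1 or more as detection, Egr1 was found in 76 of 321 cells (23.7%), Jund in 72, Jun and Junb in 60 each, Hspa1a in 44, Fos in 36, Nr4a1 in 16, Fosb in 8, Hspa1b in 3 and Atf3 in 1. Detection and level were different orderings. Among cells where they were detected, Fos had a median of 66.1 TPM and Egr1 37.4 TPM, whereas Jund, found almost as often as Egr1, had a median of 1.75 TPM and exceeded 20 TPM in 1 cell. Egr1 reached 20 TPM in 52 cells, Junb in 38, Jun in 35, Fos in 26 and Hspa1a in 16. The highest single values were 786 TPM for Egr1, 454 TPM for Fos and 329 TPM for Jun. Mean TPM over all kept cells ordered the members Egr1 (23.9), Fos (11.05), Jun (7.55), Junb (6.97), Hspa1a (3.56), Nr4a1 (1.497), Jund (0.815), Hspa1b (0.357), Fosb (0.141) and Atf3 (0.0158). These means rested on few cells, since the 10 highest cells held 60.05% of the summed TPM of Egr1, 68.9% of that of Fos, 56.6% of that of Jun and 44.9% of that of Junb.

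**Figure D1:**
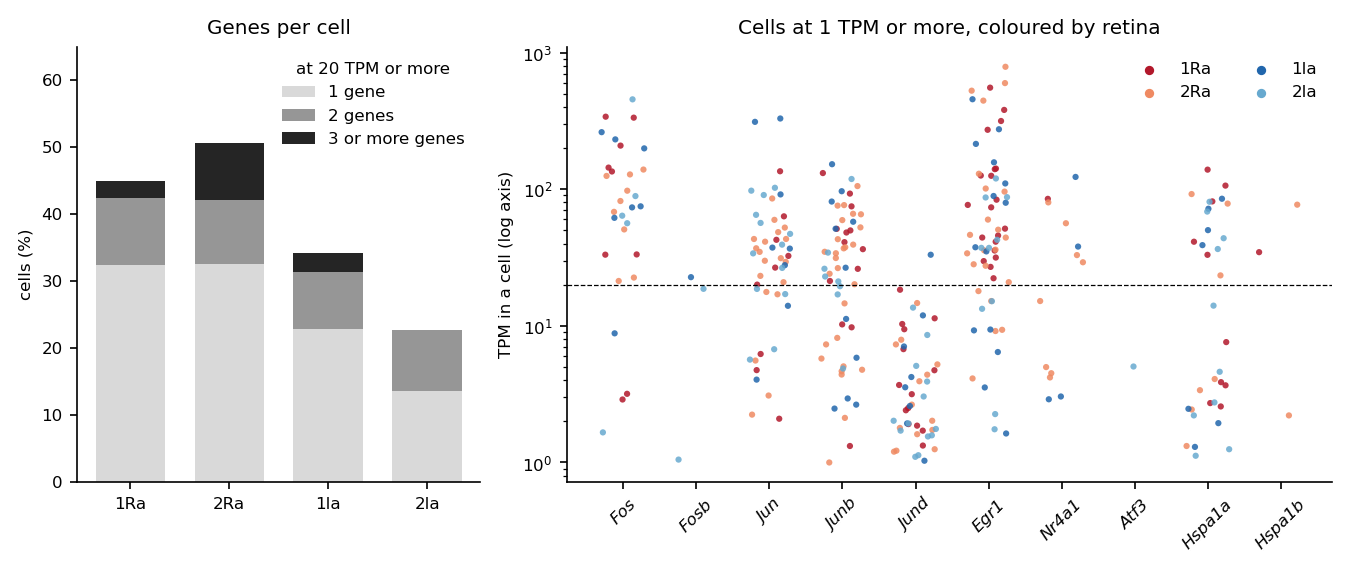
Left, percent of kept cells in each retina with 1, 2 or 3 or more members at 20 TPM or more, as stacked bars. Right, level of each member in single cells at 1 TPM or more (log axis, in TPM), coloured by retina, with a dashed line at 20 TPM; Egr1, Fos, Jun, Junb, Nr4a1 and Hspa1a pass 100 TPM in some cells, and most Jund points lie below the line.

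Egr1, on chromosome 18 (34859823-34864984, plus strand, GRCm38), was the most abundant member by mean TPM. Of the 3 marker groups it was highest in Sox6-only cells. Summed over the cells of each retina, Sox6-only cells had 155 CPM in 1Ra, 128 in 2Ra, 96.3 in 1la and 12.99 in 2la. Vsx1-only cells had 14.3, 9.10, 7.03 and 0 CPM in the same retinas, and Ddit4l-only cells had 7.30, 0.090, 1.74 and 0.160 CPM. The Sox6-only value was the highest of the 3 groups in each of the 4 retinas, although the 2la Sox6-only value was below the 1Ra Vsx1-only value. Over the sums per mouse, Egr1 averaged 90.2 ± 38.6 CPM in Sox6-only, 6.94 ± 4.39 in Vsx1-only and 2.47 ± 3.30 in Ddit4l-only cells (SD, n = 2 mice). It was detected in 46 of 151 Sox6-only cells (30.5%, 95% exact Clopper-Pearson interval 23.2% to 38.5%), 6 of 60 Vsx1-only cells (10%, 3.76% to 20.5%) and 7 of 59 Ddit4l-only cells (11.9%, 4.91% to 22.9%). After thinning every cell to 200000 counts the shares were 29.8%, 10% and 6.78% in the same order. Without thinning, Egr1 was also detected in 11 of the 33 cells with none of the 3 markers (33.3%) and in 6 of the 18 with more than 1 (33.3%). Pooled and scaled by plain library size, it had 83.6 CPM in Sox6-only cells and 64.1 CPM in cells with none of the markers. Intervals on shares of cells cover counting error only.

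Fos, the founding AP-1 partner (chromosome 12, 85473890-85477273, plus strand, 4 exons), was nearly absent from Ddit4l-only cells. It had 37.7 CPM in 1Ra, 14.1 in 2Ra, 11.5 in 1la and 5.29 in 2la in Sox6-only cells. In Vsx1-only cells it had 0.149, 2.82, 51.8 and 0.059 CPM in the same retinas. Ddit4l-only cells gave 0, 1, 0 and 1 counts, the lowest of the 3 groups in 1Ra, 2Ra and 1la and tied with the 1 count of Vsx1-only cells in 2la. The rod and cone marker lists were also lowest in Ddit4l-only cells. The 8 rod markers summed to 3296 and 2696 CPM in Sox6-only cells of mouse 1 and mouse 2, 4263 and 3467 in Vsx1-only cells and 1331 and 1839 in Ddit4l-only cells, and the 6 cone markers to 2577 and 2198 CPM in Sox6-only, 4385 and 2886 in Vsx1-only and 788 and 757 in Ddit4l-only cells. Whether the cone list sums came from cones was not tested, and neither was the part of the 2 lists in the Fos difference. The high 1la Vsx1-only value came from 4 of 16 cells, 1 of which held 48.4% of the counts. Fos was detected in 18 of 151 Sox6-only cells (11.9%), 8 of 60 Vsx1-only cells (13.3%) and 2 of 59 Ddit4l-only cells (3.39%), where its highest level was 0.67 TPM. Among the 33 cells with none of the 3 markers, Fos was detected in 5 (15.2%). Pooled and scaled by plain library size, Fos had 39.8 CPM there, against 13.6 CPM in Sox6-only and 16.9 CPM in Vsx1-only cells. Of the 1298.97 Fos counts of cells with none, 615.99 came from 1 cell of 2la. Thinned to 200000 counts, it was found in 10.6% of Sox6-only and 10% of Vsx1-only cells, and in 0 of 59 Ddit4l-only cells, which allows a share of up to 5.08%. Its relative Fosb (chromosome 7, 19302696-19310051, minus strand), induced with Fos in many neurons, was found in 5, 2 and 0 cells of the 3 groups, at a median of 0.38 TPM where detected. Of its 124.46 counts, 66.01 came from 1 cell of 1la with more than 1 marker and 47.16 from 1 Sox6-only cell of 2la.

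The 3 Jun genes, which pair with Fos proteins or with each other, had unlike patterns. Jun (chromosome 4, 95049034-95052222, minus strand, 1 exon) had 6.44 CPM in 1Ra, 15.1 in 2Ra, 9.42 in 1la and 8.99 in 2la in Sox6-only cells. Vsx1-only cells had 0, 21.03, 2.43 and 0 CPM, and Ddit4l-only cells 15.9, 26.7, 0.554 and 22.7 CPM. Ddit4l-only cells thus had the highest Jun of the 3 groups in 3 of 4 retinas and the lowest in 1la, and the ranges of all 3 groups overlapped. Jun was detected in 27 of 151 Sox6-only, 6 of 60 Vsx1-only and 16 of 59 Ddit4l-only cells. Among the 33 cells with none of the 3 markers it was detected in 5. Pooled and scaled by plain library size, Jun had 39.4 CPM there, against 17.6 CPM in Ddit4l-only cells. Of the 1287.05 Jun counts of cells with none, 672.94 and 446.89 came from single cells of 1la. Junb (chromosome 8, 84974484-84978718, minus strand), a weaker activator than Jun, had 10.5, 13.97, 15.1 and 6.16 CPM in Sox6-only cells, 12.9, 4.63, 0.607 and 3.57 CPM in Vsx1-only cells and 10.4, 14.99, 6.48 and 0.321 CPM in Ddit4l-only cells, in the order 1Ra, 2Ra, 1la and 2la. Its ranges overlapped between every pair of groups. Jund (chromosome 8, 70698949-70700616, plus strand), which many cells express without a stimulus, was low throughout, at 1.68 to 2.93 CPM in Sox6-only cells, 0.314 to 1.04 in Vsx1-only cells and 0.079 to 1.78 in Ddit4l-only cells. Sox6-only cells had the highest Jund of the 3 groups in each of the 4 retinas, and their range lay above that of Vsx1-only cells.

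Nr4a1 (chromosome 15, 101254269-101274795, plus strand) was a gene of single cells. Sox6-only cells had 5.14 CPM in 1Ra, 3.41 in 2Ra, 2.52 in 1la and 0 in 2la. Vsx1-only cells had 18.6 CPM in 1la, 99.7% of it from 1 cell at 123 TPM, and 0 in the other 3 retinas. Ddit4l-only cells had 0.090 CPM in 2Ra and 0 elsewhere. By retina, Nr4a1 was detected in 1 cell of 1Ra and 11 of 2Ra, against 4 of 1la and 0 of 88 of 2la, which allows a share of up to 3.41%. Atf3 (chromosome 1, 191170296-191218039, minus strand), which is induced in injured neurons, was found in 1 cell of 2la with none of the 3 markers, at 5.07 TPM and 10 counts. In the other 320 kept cells Atf3 had no counts, so these data hold almost no Atf3 signal to compare.

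The heat shock pair lies in tandem on chromosome 17, Hspa1b at 34956436-34959238 and Hspa1a at 34969190-34972156, both on the minus strand and each with 1 exon. Of the 50-base words of the Hspa1a transcript, 58.8% also occur in Hspa1b, so the split of reads between the copies depends on the estimate made by RSEM and is uncertain. With the next relative, Hspa1l, Hspa1a shares 7.95% of such words, and with Hspa8 it shares none. Hspa1a had 8.52 CPM in 1Ra, 9.11 in 2Ra, 5.48 in 1la and 6.36 in 2la in Sox6-only cells. Vsx1-only cells had 1.12, 0.078, 12.5 and 0 CPM, the third value almost all (98.1%) from 1 cell at 85.1 TPM, and Ddit4l-only cells had 6.31, 0.628, 0 and 5.01 CPM. Hspa1a was detected in 18 of 151 Sox6-only, 7 of 60 Vsx1-only and 10 of 59 Ddit4l-only cells. Hspa1b was detected in 3 cells, 1 of 1Ra and 2 of 2Ra, 2 of which passed none of the 3 markers, and in 0 of 158 cells of the la retinas.

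**Figure D2:**
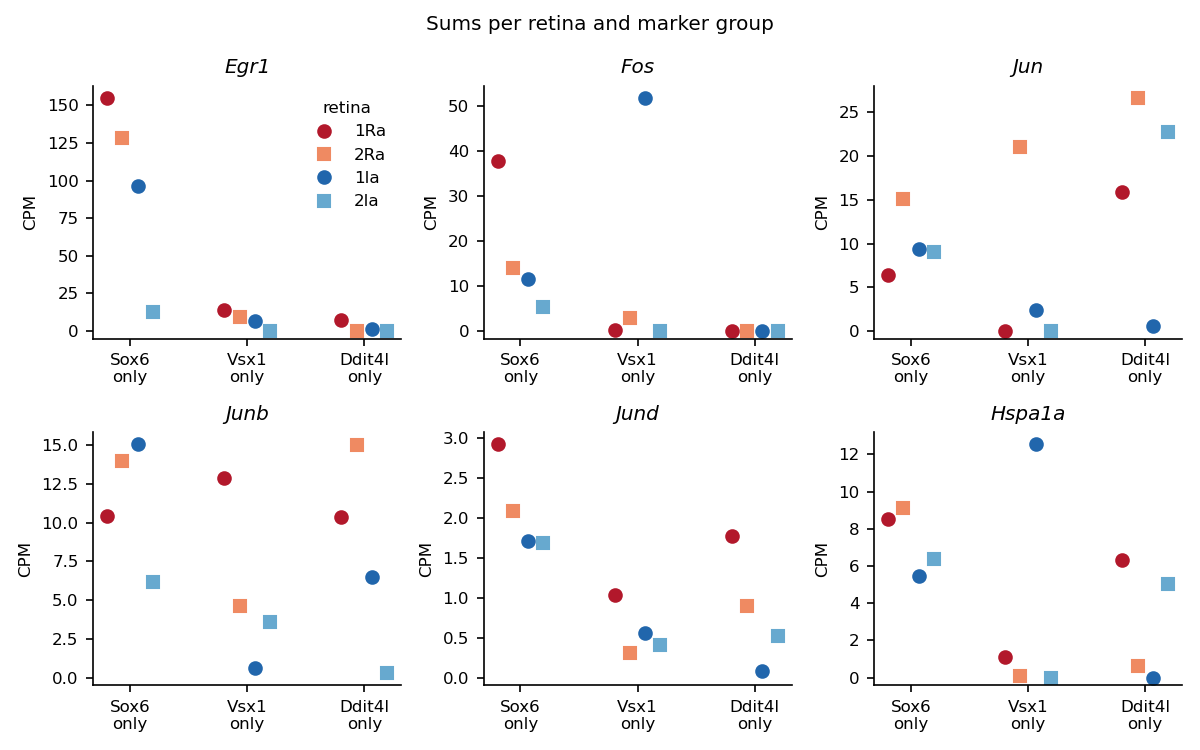
CPM of Egr1, Fos, Jun, Junb, Jund and Hspa1a in the summed cells of each retina, with Sox6-only, Vsx1-only and Ddit4l-only cells from left to right (each point is 1 retina). Egr1 is highest in Sox6-only cells in every retina, Fos is near 0 in all 4 Ddit4l-only sums, and single Vsx1-only points stand far above the other Vsx1-only points for Fos, Jun and Hspa1a.

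The marker groups were compared on counts summed per mouse and group with edgeR's quasi-likelihood test, mouse as a block and p-values adjusted over 16646 genes, and a call required an adjusted p under 0.05 and a 2-fold change. Of the 7 members with enough counts to test (all but Fosb, Atf3 and Hspa1b), 0 were called between Sox6-only and Vsx1-only cells, 0 between Sox6-only and Ddit4l-only cells and 0 between Vsx1-only and Ddit4l-only cells. Across all genes the same rule called 0% in each of the contrasts with Sox6-only cells and 0.0421% between Vsx1-only and Ddit4l-only cells. Of the genes that define the groups, Sox6 had an edgeR adjusted p of 0.123 against Vsx1-only and 0.247 against Ddit4l-only cells and was not called, and Ddit4l was called between Vsx1-only and Ddit4l-only cells (adjusted p = 0.0403). Egr1 was higher in Sox6-only than in Vsx1-only cells by 3.85 ± 1.16 on the log2 scale (SE, unadjusted p = 0.0253, adjusted p = 0.506 by edgeR) and higher than in Ddit4l-only cells by 6.13 ± 1.34 (unadjusted p = 0.00803, adjusted p = 0.474 by edgeR). Fos in Sox6-only cells exceeded that in Ddit4l-only cells by 8.41 ± 2.24 (unadjusted p = 0.0165, adjusted p = 0.519 by edgeR), and Fos in Vsx1-only cells exceeded that in Ddit4l-only cells by 7.89 ± 2.33 (unadjusted p = 0.0237, adjusted p = 0.315 by edgeR). Fitted folds against a group with 0 to 2 counts depend on the prior count and are no measure of size. No other member had an unadjusted p under 0.05 in the 3 contrasts.

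DESeq2, which borrows its spread differently, called Egr1 against both other groups and Fos against Ddit4l-only cells. For Egr1 its adjusted p was 0.00198 (log2 3.81) between Sox6-only and Vsx1-only cells and 3.62e-08 (log2 6.12) between Sox6-only and Ddit4l-only cells. For Fos its adjusted p was 2.94e-05 between Sox6-only and Ddit4l-only cells and 4.05e-05 between Vsx1-only and Ddit4l-only cells. DESeq2 called 5.12%, 4.57% and 9.71% of all genes in the contrasts of Sox6-only with Vsx1-only, Sox6-only with Ddit4l-only and Vsx1-only with Ddit4l-only cells. On mean log2(TPM + 1) per mouse and group, limma called Egr1 in Sox6-only cells against Vsx1-only cells (difference 1.34, adjusted p = 0.0256) and against Ddit4l-only cells (1.496, adjusted p = 0.0227), the one member with enough signal for that test. limma called 5.19%, 3.09% and 9.09% of all genes in the same 3 contrasts. The Sox6-only difference of Egr1 therefore depended on the test for its call, and it kept its sign under all alternatives tried. Jund, whose Sox6-only and Vsx1-only ranges did not overlap, differed by 1.89 ± 0.944 on the log2 scale (adjusted p = 0.692 by edgeR).

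**Figure D3:**
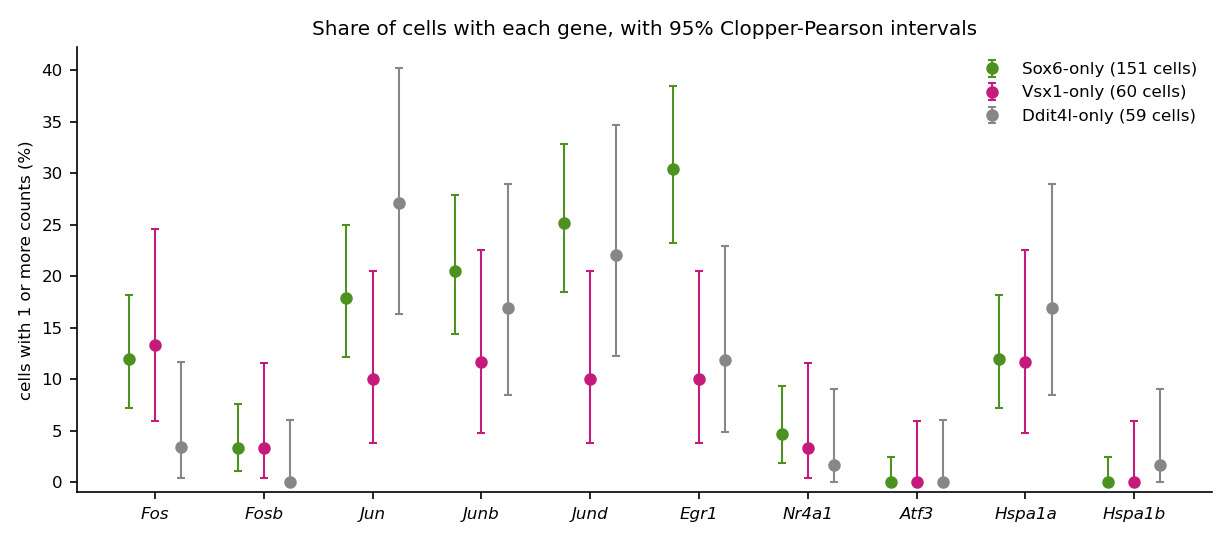
Percent of cells in which each member was detected at an expected count of 1 or more, by marker group, with 95% exact intervals that cover counting error only. The Egr1 share is 30.5% in Sox6-only cells, against 10% in Vsx1-only and 11.9% in Ddit4l-only cells.

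Between retinas, Egr1 had 70.9 and 84.8 CPM in 1Ra and 2Ra, against 48.004 and 9.78 CPM in 1la and 2la, so the Ra values were both above the la values. Junb also lay higher in both Ra retinas, at 9.57 and 13.7 CPM against 8.33 and 3.9999 CPM in the la retinas, and so did Hspa1b, at 0.537 and 1.48 CPM against 0.011 and 0.009 CPM. Fosb was the other way round, with 0.034 and 0.023 CPM in 1Ra and 2Ra, against 0.793 and 0.477 CPM in 1la and 2la. For Fos (20.2 and 11.6 against 17.3 and 9.70 CPM), Jun (7.53 and 16.4 against 18.01 and 11.3), Jund (1.93 and 1.46 against 1.87 and 1.10), Nr4a1 (1.91 and 4.58 against 5.48 and 0) and Hspa1a (9.19 and 5.39 against 7.05 and 4.47) the Ra and la values overlapped. Within each mouse, however, Ra lay above la for Fos, Jund and Hspa1a. For Jun and Nr4a1 Ra lay below la in mouse 1 and above it in mouse 2. Single cells of 1la held 672.94 and 446.89 of its 1566.8 Jun counts and 367.12 of its 477.12 Nr4a1 counts. Of the 9 members tested on sums per retina (all but Atf3), edgeR's quasi-likelihood test called 0 and DESeq2 called 0, where edgeR called 0% and DESeq2 2.99% of 18034 genes. The limma test called 0% of the genes it could test. The unadjusted edgeR p was under 0.05 for 2 of the 9, Hspa1b (log2 6.42 ± 1.11 SE, p = 0.00318, adjusted p = 0.352) and Fosb (log2 -4.42 ± 0.904, p = 0.0061, adjusted p = 0.352), against 10.1% of all genes. Each rested on a few cells, 159 of the Hspa1b counts being in 3 Ra cells. Egr1 differed between Ra and la by 1.44 ± 0.782 on the log2 scale (adjusted p = 0.628 by edgeR), and between 0.70 and 2.996 with 1 retina left out (0.70 without 2la, 2.996 without 1la). By mouse, as the mean of the retina sums, Egr1 had 59.4 CPM in mouse 1 and 47.3 in mouse 2, Fos 18.7 and 10.6, and Hspa1a 8.12 and 4.93, with 1 animal a side and so no test. Egr1 at 20 TPM or more was found in 25% of 1Ra and 20.5% of 2Ra cells, against 12.9% of 1la and 6.82% of 2la cells.

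**Figure D4:**
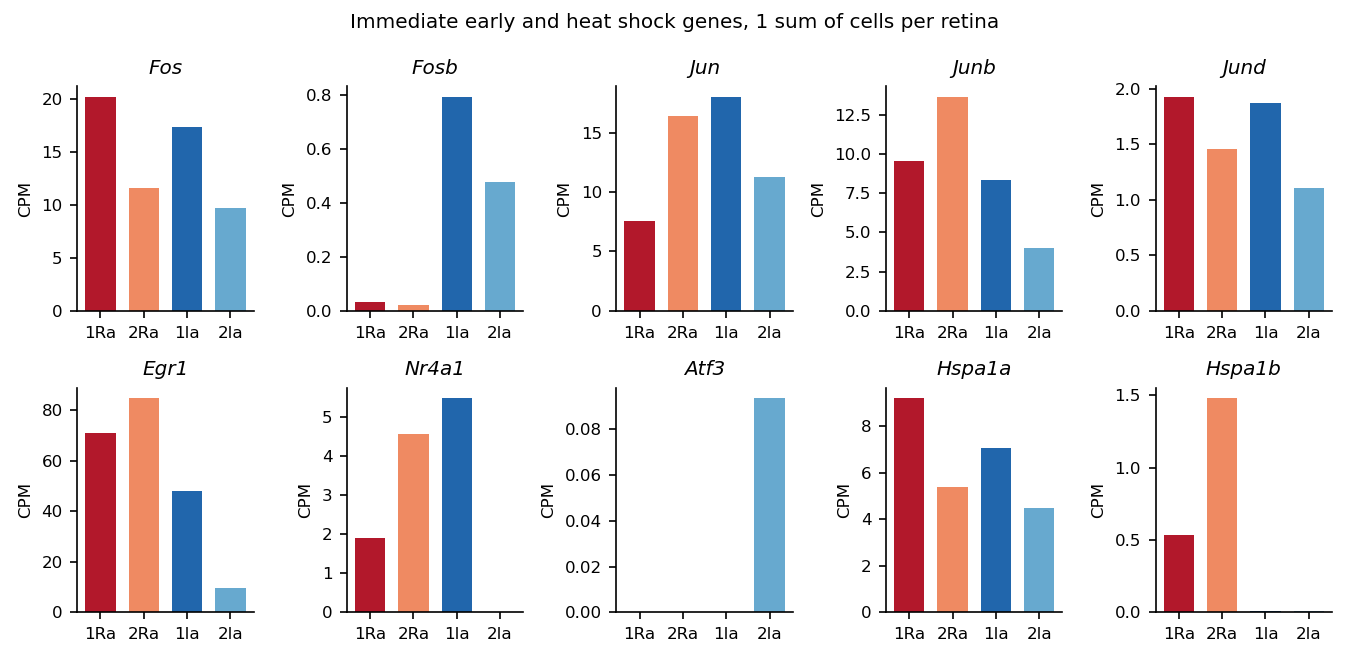
CPM of the 10 members in the summed kept cells of each retina, 1 bar a retina, with the Ra retinas left of the la retinas. Both Ra values of Egr1 lie above both la values, and both Ra values of Fosb lie below both la values.

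The members were not equally spread over cells. At least 1 member reached 20 TPM in 122 of 321 cells (38.01%), and 3 or more did so in 11 cells. By retina the share with at least 1 at 20 TPM was 45% in 1Ra and 50.6% in 2Ra, against 34.3% in 1la and 22.7% in 2la. By group it was 43.05% in Sox6-only, 21.7% in Vsx1-only and 28.8% in Ddit4l-only cells, and it was 55.6% in the 18 cells with more than 1 marker and 51.5% in the 33 with none. Counting 1 or more counts, 213 cells (66.4%) had a member and 6 was the most in 1 cell. The cell with most members at 20 TPM was a Sox6-only cell of 1Ra, with Egr1 at 553 TPM, Fos at 208, Nr4a1 at 84.9, Junb at 74.8 and Jun at 20.02. A Sox6-only cell of 2Ra had Egr1 at 786 TPM with Fos at 128, Junb at 105 and Nr4a1 at 56.3, and a Vsx1-only cell of 1la had Fos at 199 TPM, Nr4a1 at 123 and Egr1 at 37.6. Of the 11 cells, 9 were from Ra retinas and 2 from 1la. None of the 3 cells just described had Hspa1a or Hspa1b, but 3 others of the 11, all Sox6-only, had Hspa1a, at 38.9 TPM in 1la and at 92.1 and 78.4 TPM in 2Ra. Over all kept cells Hspa1a reached 20 TPM in 16 of 321 (4.98%).

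Egr1, Junb and Nr4a1 were each detected in a larger share of the cells with Fos than of the cells without it. Among the 36 cells with Fos, Egr1 was also found in 19 (52.8%), against 20% of the 285 cells without Fos. Junb was found in 18 of the Fos cells (50%), against 14.7% of the others, and Nr4a1 in 8 (22.2%), against 2.81%. Jun did not follow this pattern, with 19.4% of Fos cells and 18.6% of the others, and neither did Hspa1a, with 13.9% and 13.7%. Among the cells with Junb, though, Hspa1a was found in 14 of 60 (23.3%), against 11.5% of the cells without Junb. These are descriptions over cells that share 4 retinas, without a test. The mean log2(TPM + 1) of the 7 early genes other than Jund and the level of the heat shock pair had a mean Spearman rho of 0.069 within retinas (n = 321 cells in 4 retinas). The early gene level went with the total count of the cell (mean rho 0.325, between 0.240 and 0.372 over the 4 retinas). Its mean rho was -0.048 with the mitochondrial share (-0.185 to 0.087) and 0.096 with the rod marker level (-0.094 to 0.248). The part of sequencing depth in the co-detection was not tested.

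By the fixed measure of likeness, Spearman's rho over 321 cells after centring each retina, the genes nearest to the early gene level among 10655 compared were Cenpb, Rp1l1, Ier2, Ring1, Pde6b, C2cd2l, Slc24a1 and Gnb1, at 0.288 to 0.234. Averaged over rho within each retina, Ier2, itself an immediate early gene, was at 0.197, the centromere protein gene Cenpb at 0.2004 and the photoreceptor gene Rp1l1 at 0.252. By that mean the nearest genes were Zfp516 (0.289), Pitpnm3 (0.255), Rp1l1 and Gnb1 (0.236), and Ier2 ranked 34. Of all genes compared, 99% were below 0.171. For the heat shock pair the nearest were Bicd2, Slc44a2, Myom1, Atxn7, Chchd6, Iqgap1, Ccdc39 and Cand2, led by Bicd2 at 0.481. Within retinas Bicd2 fell to a mean rho of 0.123 and Cand2 to -0.007, because centring gives the many cells at 0 a retina-specific value. By mean rho within retinas, a measure added after seeing the data, the genes nearest to the heat shock pair included the photoreceptor genes Rp1l1 (0.255), Gnat1 (0.230), Rcvrn (0.227) and Nrl (0.220), where 99% of genes were below 0.148. The pair's mean rho with the summed rod markers was 0.176, positive in each of the 4 retinas (0.051 to 0.311). These weak correlations in sparse counts are a description without a test.

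The members also appeared in wells that were left out. The 62 wells under 3000 genes had a median of 8838 counts and 788 genes. Hspa1a was found in 6 of them, Egr1 in 5, Fos in 4, Jun in 2, and Junb and Nr4a1 in 1 each, while Fosb, Jund, Atf3 and Hspa1b were found in none.

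Other genes of the same pathways were looked at as lists. Of 40 other immediate early genes, 27 could be tested between marker groups and 29 between retinas, and edgeR's quasi-likelihood test called 0 in all 4 contrasts, with 4, 7, 4 and 2 at an unadjusted p under 0.05, where 8.6%, 8.07%, 12.9% and 10.1% of all genes were (Sox6-only against Vsx1-only, Sox6-only against Ddit4l-only, Vsx1-only against Ddit4l-only and Ra against la). The neuronal activity genes Arc and Npas4 were found in 0.623% and 0.935% of cells. The most abundant were Gadd45g, a growth arrest gene, at a mean of 92.2 TPM, the antiproliferative gene Btg2 at 64.6, the clock-linked repressor Bhlhe40 at 61.6 and the phosphatase gene Dusp1 at 39.4. Dusp1, which shuts off the kinases upstream of Fos, had 99.9 and 40.5 CPM in Sox6-only cells of mouse 1 and mouse 2, 37.5 and 17.4 CPM in Vsx1-only cells and 9.68 and 11.1 CPM in Ddit4l-only cells. Bhlhe40 had 135 and 91.9 CPM in Sox6-only cells, 26.7 and 35.4 in Vsx1-only cells and 37.5 and 16.2 in Ddit4l-only cells. Gadd45g went the other way, with 47.1 and 25.2 CPM in Sox6-only cells, 55.4 and 35.6 in Vsx1-only cells and 200 and 105 in Ddit4l-only cells. In Sox6-only against Ddit4l-only cells, DESeq2 called Dusp1 (log2 2.51, adjusted p = 0.000639) and Bhlhe40 (2.07, adjusted p = 0.00338) higher, and Gadd45g (-2.13, adjusted p = 4.72e-09) and the kinase regulator Trib1 (-4.22, adjusted p = 0.00821) lower, 4 of 27 where it called 4.57% of all genes. edgeR gave these 4 adjusted p of 0.474, 0.476, 0.355 and 0.621. limma called Gadd45g (adjusted p = 0.00199), Trib1 (0.00542) and Bhlhe40 (0.0130) but not Dusp1 (0.120). These were 3 of 12 tested, where limma called 3.09% of all genes. On retina sums, which take both retinas of a mouse as replicates, edgeR called Gadd45g (adjusted p = 0.0260). That was 1 of 27, against 66 of 16433 genes. Between Sox6-only and Vsx1-only cells DESeq2 called Ier2 (2.13) and Bhlhe40 (1.72) higher and the zinc finger gene Klf6 (-2.15) lower. These were 3 of 27, where it called 5.12% of all genes. limma called Ier2 and Bhlhe40 there, 2 of 12 tested, against 5.19% of all genes. Between Vsx1-only and Ddit4l-only cells DESeq2 called Gadd45g lower (-1.69) and Zfp36, which destabilises messenger RNAs, higher, against 0 CPM in Ddit4l-only cells of both mice. These were 2 of 27, where it called 9.71% of all genes. limma called Gadd45g and Trib1 lower there, 2 of 12 tested, against 9.09% of all genes. On retina sums edgeR called Gadd45g (adjusted p = 0.0371), 1 of 27, against 290 of 16433 genes. By edgeR the median log2 change of the list between Sox6-only and Ddit4l-only cells was 0.62, against 0.079 over all genes. It was 0.26 against 0.054 between Sox6-only and Vsx1-only cells, and 0.59 against 0.011 between Vsx1-only and Ddit4l-only cells.

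Of the 21 AP-1 partners and upstream factors, 17 could be tested, and edgeR called 0 in all 4 contrasts, with 0, 2, 3 and 0 at an unadjusted p under 0.05, counts to be read against the 8.6%, 8.07%, 12.9% and 10.1% of all genes. The AP-1 partner Atf2 averaged 67.2 TPM, and the Jun kinases Mapk8 and Mapk10 averaged 47.96 and 45.2 TPM. Mapk10 had 99.5 and 82.2 CPM in Sox6-only cells of mouse 1 and mouse 2, 72.5 and 45.9 in Vsx1-only cells and 5.17 and 15.6 in Ddit4l-only cells. DESeq2 called this Jun kinase lower in Ddit4l-only cells than in either other group (log2 3.12 for Sox6-only and 2.59 for Vsx1-only over Ddit4l-only cells). Jun itself had its highest mean of the 3 marker groups, 16.5 ± 10.6 CPM (SD, n = 2 mice), in Ddit4l-only cells. Mapk10 was the 1 of 17 called between Sox6-only and Ddit4l-only cells, where DESeq2 called 4.57% of all genes. Between Vsx1-only and Ddit4l-only cells DESeq2 also called Mapk8 (log2 2.11) and Mkl2 (2.32) higher, so 3 of 17, against 9.71% of all genes.

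Several other chaperones were far more abundant than Hspa1a. Hspa8, the constitutive relative of Hspa1a, averaged 4206 TPM and was found in 100% of cells, Hsp90aa1 1555 TPM and Dnaja1 517 TPM, against 3.56 TPM for Hspa1a. Of the 31 other heat shock proteins and cochaperones, edgeR called 0 between marker groups (28 tested, with 4, 2 and 5 at an unadjusted p under 0.05, against 8.6%, 8.07% and 12.9% of all genes) and 0 between Ra and la retinas (30 tested). Between Ra and la retinas, 22 of the 30 lay higher in Ra, as did 49.2% of all genes, with a median log2 change of 0.24 against -0.014 over all genes. An unadjusted edgeR p under 0.05 was found for 8 of the 30, all higher in Ra, against 10.1% of all genes. Among marker groups DESeq2 called Dnajb5, an HSP40 cochaperone, higher in Sox6-only than in Vsx1-only cells (15.5 and 14.9 CPM in mouse 1 and mouse 2, against 1.94 and 2.05 CPM, adjusted p = 0.00157), and the small heat shock protein Cryab higher in Sox6-only than in Ddit4l-only cells (98.4 and 31.1 CPM, against 6.36 and 6.23 CPM, adjusted p = 0.0143), where edgeR gave adjusted p of 0.433 and 0.581. Between Vsx1-only and Ddit4l-only cells DESeq2 called 3 lower, Dnajb5 (log2 -3.13), the HSP90 cochaperone Ahsa1 (-1.20) and the HSP110 gene Hsph1 (-1.13), with edgeR adjusted p of 0.234, 0.273 and 0.338. That made 3 of 28 tested, where DESeq2 called 9.71% of all genes. Dnajb5 and Cryab were each 1 of 28 in their contrasts with Sox6-only cells, where it called 5.12% and 4.57% of all genes. The unfolded protein response of the endoplasmic reticulum gave 10 of 13 genes higher in Ra and a median of 0.28. Of the 13, 4 had an unadjusted edgeR p under 0.05, again all higher in Ra, to be read against the same shares of all genes. Hsp90aa1, the stress-inducible HSP90, had 1425 and 1815 CPM in 1Ra and 2Ra, against 871 and 776 CPM in 1la and 2la (log2 0.98 ± 0.17, adjusted p = 0.352 by edgeR and 0.00125 by DESeq2). Hspa5, the chaperone of the endoplasmic reticulum also called BiP, had 1187 and 1187 CPM, against 701 and 557 CPM (log2 0.92 ± 0.16, adjusted p = 0.352 by edgeR). Dnajb9, a cochaperone of Hspa5, had 111 and 114 CPM, against 44.3 and 51.9 CPM (log2 1.23 ± 0.21, adjusted p = 0.352 by edgeR). It was the 1 gene of the 30 heat shock proteins and cochaperones tested that DESeq2 called at 2-fold (adjusted p = 0.000208), where DESeq2 called 2.99% of all genes. For these 3, picked after their values were seen, the Ra values did not overlap the la values. Within Sox6-only, Vsx1-only and Ddit4l-only cells taken alone the log2 differences were 0.97, 0.99 and 0.48 for Hsp90aa1. They were 1.10, 0.18 and 1.11 for Hspa5 and 1.49, 0.16 and 1.98 for Dnajb9, so small in Vsx1-only cells for both. Those cells are part of the same retina sums, so these values are no separate support. The mitochondrial share also differed between Ra and la retinas in the same cells, as given above, and its part in these values was not tested.

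**Figure D5:**
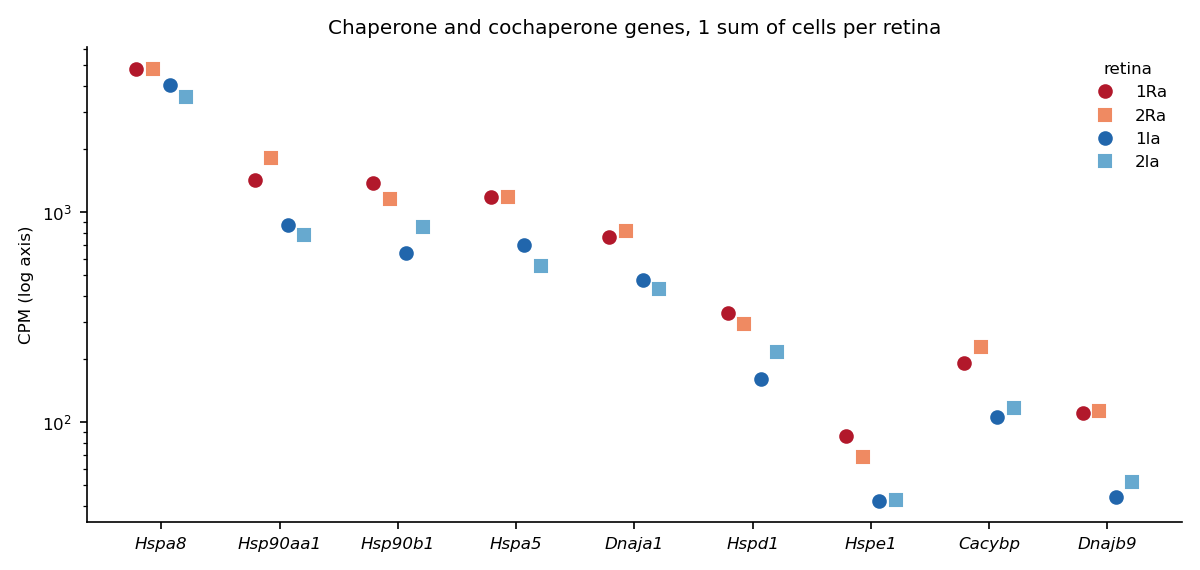
CPM (log axis) in the summed kept cells of each retina, 1 point a retina and Ra left of la, for the chaperone and endoplasmic reticulum genes with an unadjusted edgeR p under 0.05 and a mean of at least 10 TPM. Because they were picked by that p, the separation of the Ra points from the la points in all of them follows from the choice.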

How the data were processed

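RNA of single sorted cells was measured with Smart-seq2. The authors deposited RSEM expected counts and TPM per gene and cell. Per the submitters' processing notes the tools were TopHat2 2.0.10 and RSEM 1.2.28 and the build mm10, and the annotation is not given in the sources used here. A count of 1 or more was taken as detection. The members and gene lists were chosen with earlier results of these data known. Expected counts were summed over cells per mouse and marker group or per retina (at least 5 cells), rounded, and tested with edgeR 4.0.16 (TMM, filterByExpr, quasi-likelihood) in R 4.3.3, with mouse as a block between marker groups and no block between Ra and la. The SE of a log2 fold change is its size over the root of the quasi-likelihood F. Alternatives used DESeq2 1.42.0 and limma 3.58.1 (pseudocount 1 TPM), other filters, scalings and cell sets, and each retina left out. CPM use TMM library sizes. Scripts were tested on simulated data. Mitochondrial shares count 37 genes, and thinning drew 200000 counts per cell. Motif and interval scripts used Python 3.11.15 with scipy 1.17.1. Gene coordinates are those of GENCODE on GRCm38. Of each list, genes called in a tested comparison and the 4 with the highest mean TPM were named, and of all genes the 8 most alike. 1 gene that this rule names is not reported here. Arc, Npas4, Ier2 beside its rho and the choice of 3 chaperones to give in full were made after their values were seen. The same-numbered retinas come from the same mouse, and their deviations from the Ra and la means correlated at 0.049 over 8923 genes, a check that 2 pairs can hardly decide. 1 cell of 1la had no values. PCR reads without molecular identifiers are not independent molecules, so intervals and zero-count limits (3 cells of the total) cover counting error only.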

Additional observations from a re-analysis of the deposited data

Results flagged for a closer look

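The CPM of 4 sums stood apart from the other 3 retinas of the same marker group by Dixon's criterion at the 95% level, among 27 sets looked at. That level assumes normally distributed values. These sparse sums rest on few cells, so the criterion only picks values to look at and gives no chance rate here. Fos in Vsx1-only cells was 51.8 CPM in 1la, and the nearest retina had 2.82 CPM. Nr4a1 in the same sum was 18.6 CPM, and the other 3 retinas had 0. Hspa1a there was 12.5 CPM, and the nearest retina had 1.12 CPM. Jun in Vsx1-only cells was 21.03 CPM in 2Ra, and the nearest retina had 2.43 CPM. Single cells held 48.4% of the Fos, 99.7% of the Nr4a1, 98.1% of the Hspa1a and 76.5% of the Jun counts in these sums.

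The mice were also compared over 29 contrasts of members reaching 1 CPM, between Ra and la and between marker groups, looking for those in which every retina of mouse 1 went one way and every retina of mouse 2 the other. This held for 2, both between Ra and la. For Jun, Ra minus la was -10.5 CPM in mouse 1 and 5.10 CPM in mouse 2. For Nr4a1 it was -3.57 CPM in mouse 1 and 4.58 CPM in mouse 2. The difference was not tested, since each mouse gave 1 Ra and 1 la retina. Both mouse 1 values rested on single cells of 1la. Of the 1566.8 Jun counts of 1la, cells with none of the 3 markers held 672.94 and 446.89 each. Of its 477.12 Nr4a1 counts, 367.12 were in 1 Vsx1-only cell. Between marker groups the sums per mouse also went opposite ways for some members, though not in every retina. Fos in Sox6-only and Vsx1-only cells was 20.7 and 31.1 CPM in mouse 1, and 9.14 and 1.22 CPM in mouse 2. Hspa1a in Sox6-only, Vsx1-only and Ddit4l-only cells was 6.58, 7.98 and 3.47 CPM in mouse 1, and 7.58, 0.033 and 3.67 CPM in mouse 2. Nr4a1 in Sox6-only and Vsx1-only cells was 3.46 and 11.2 CPM in mouse 1, and 1.48 and 0 CPM in mouse 2.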

How the results depend on the processing

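With 0 members called by edgeR in each comparison, DESeq2 called 1 between Sox6-only and Vsx1-only cells (limma 1), 2 between Sox6-only and Ddit4l-only cells (limma 1) and 1 between Vsx1-only and Ddit4l-only cells. All other alternatives called 0, including the marker contrasts with no replicate block (0), retina sums with retina as replicate block (0) and Ra against la with mouse as replicate block (0). Egr1 kept its sign in every fit run. Fosb and Hspa1b kept theirs in every fit run between Ra and la, where each rested on a few cells. Of the log2 fold changes of members, 32 changed sign, while 380 kept their sign and their side of the threshold and 6 passed it. Between Sox6-only and Vsx1-only cells, with no replicate block Fos gave -0.14, Nr4a1 gave 0.14 at 5000 genes per cell, 0.093 with markers at 50 TPM and 2.25 with retina as replicate block, and leaving out 1 retina gave Fos -0.60 to 5.66, Nr4a1 -1.55 to 9.59 and Hspa1a -0.17 to 4.62. Between Sox6-only and Ddit4l-only cells Jun ranged from -1.22 to 1.12. Between Vsx1-only and Ddit4l-only cells Hspa1a gave 0.19 with no replicate block and 0.062 without rod-rich cells, and leaving out 1 retina gave Hspa1a -3.77 to 2.13, Junb -1.49 to 1.00, Jund -0.86 to 0.59 and Nr4a1 -2.64 to 10.5. Between Ra and la, Jun gave 0.12 at 5000 genes per cell, 0.32 without rod-rich cells, and 0.24, 3.11 and 0.88 within Sox6-only, Vsx1-only and Ddit4l-only cells, and Vsx1-only cells alone gave Fos -4.11 and Hspa1a -3.38. Leaving out 1 retina gave Fos -0.22 to 0.72, Jun -0.96 to 0.17, Jund -0.14 to 0.62, Nr4a1 -0.75 to 11.1 and Hspa1a -0.090 to 0.71. The cause of the sign changes was not tested. The sparse counts of the members limit every level.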
